A study of Mus musculus with 12 samples.

Results

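The corticotropin releasing factor (CRF) and urocortin system was examined in the septum of lactating and virgin mice. Its 7 genes were chosen by name and not by their values, with earlier results of these data known. They are Crh, Ucn, Ucn2 and Ucn3, which encode the peptide ligands, Crhr1 and Crhr2, which encode the receptors, and Crhbp, which encodes a secreted binding protein. Each was measured by 1 transcript cluster, a set of probes designed for 1 stretch of transcript, so that 7 of 35556 clusters and 7 of the 19938 genes with a cluster of their own were followed. The lactating group was 6 females taken on postpartum days 6 to 8, and the virgin group was 6 age-matched females. All 12 adults came from 1 line, High maternal aggression, bred from outbred hsd:ICR mice for high maternal aggression, which limits what they say of other strains. The lactating females had been housed with a breeder male and the virgin females with other females for the same time, and all were then housed singly. Each mouse gave 1 RNA sample and 1 Affymetrix Mouse Gene 1.0 ST array, with no pooling across mice. According to the study's methods, none of the virgin females was in proestrus, and the stage of each single mouse is not in the labels.

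CRF is best known as the hypothalamic peptide that starts the hormonal stress response, and it also acts as a transmitter in many forebrain regions. Crhr1 binds CRF and urocortin 1, whereas Crhr2 binds all 3 urocortins and favours urocortins 2 and 3 over CRF. Both receptors couple mainly to the stimulatory G protein, cyclic AMP and the kinases and transcription factors that follow from it. The CRF binding protein takes up CRF and urocortin 1 and limits the free peptide. In rodents the lateral septum is one of the main sites of Crhr2 in the brain, and it receives urocortin fibres from cells that lie elsewhere, so that ligand transcripts in the septum need not tell of the peptide released there.

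The 12 arrays were alike in scale, with median intensities of 320 to 339 and pairwise correlations of log2 values of 0.987 to 0.994. No cluster of the 35556 reached an adjusted p under 0.05 in the limma fit, where the smallest adjusted p was 0.0715 and 1160 clusters were higher and 1668 lower in lactating mice at an unadjusted p under 0.05. On the linear scale, with quantile and with cyclic loess scaling 1 cluster had an adjusted p under 0.05, and the counts at the unadjusted threshold were 1569 higher and 1274 lower, 1301 and 1191, and 1340 and 1129. With the median of each array subtracted they were 2027 higher and 992 lower. The study's methods describe the dissection as the whole septum and the labels as its lateral part. All 5 markers of the lateral septum that were looked for (Zic1, Zic2, Nts, Homer2 and Trpc4) and 5 of 6 of the medial septum were measured, and none was at 0. Their summed intensities ran between 12822 and 15209 in lactating mice and 12226 and 15071 in virgin mice for the lateral septum. Those of the medial septum ran between 2674 and 3439 in lactating mice and 2327 and 3525 in virgin mice. In tissue of mixed cells, fewer cells of a type and less RNA per cell cannot be told apart.

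None of the 7 transcripts was shown to differ between lactating and virgin mice. In either direction 0 of 7 were called at an unadjusted p under 0.05 (limma), where 3.26% of all clusters were called higher and 4.69% lower in lactating mice. A count of 0 of 7 is near these shares and does not set the 7 genes apart. Differences are given as log2 of the intensity plus 16, lactating minus virgin. Their median over the 7 genes was 0.010, beside -0.0093 over all clusters. The point estimates ran between -0.11 for Ucn and 0.16 for Crhbp, and each of the 7 intervals at 95% held 0.

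**Figure D1:**
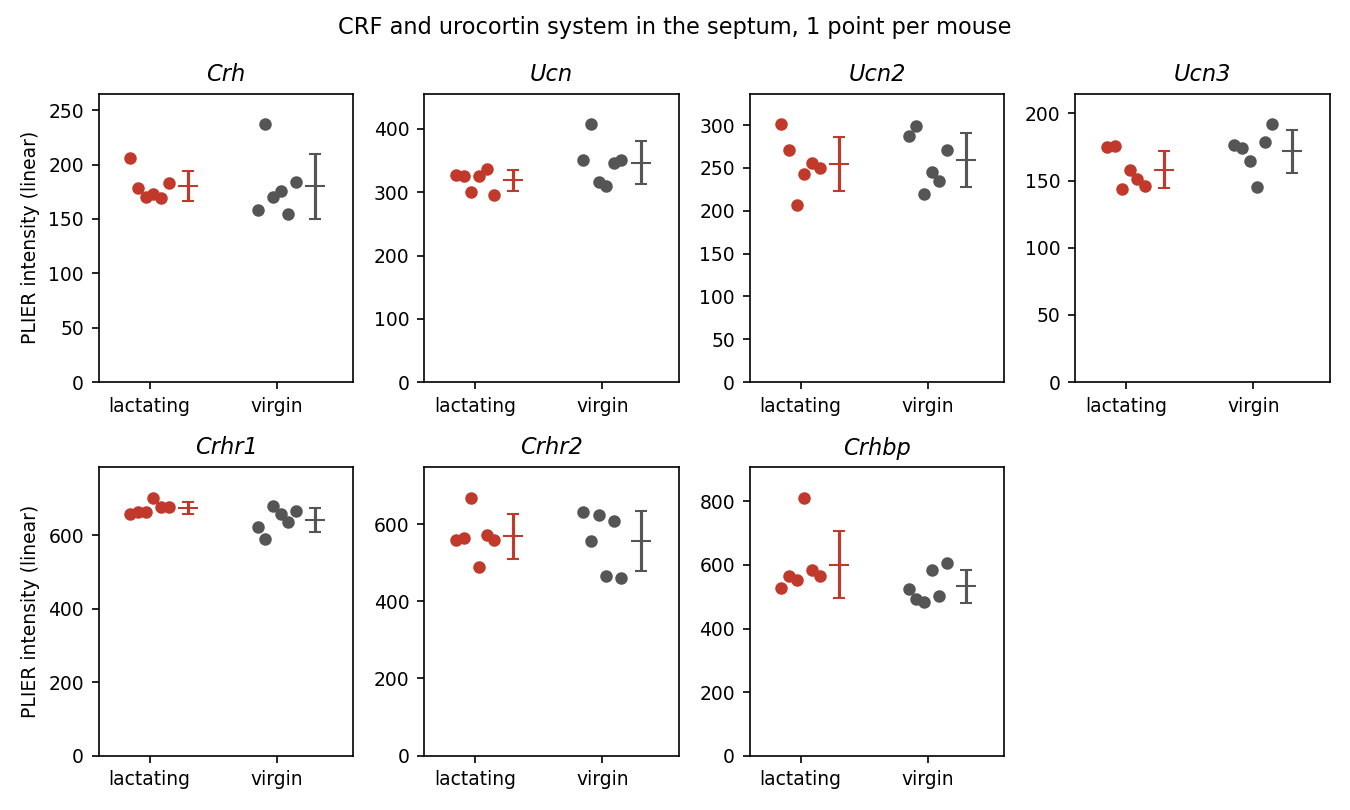
Intensity of the 7 genes (linear PLIER scale, each vertical axis starting at 0) in the 6 lactating mice, left, and the 6 virgin mice, right, with 1 point per mouse in the order 1 to 6 and the mean with its SD beside them. The groups overlap in every panel, and lactating mouse 4 stands above the other 11 mice for Crhbp.

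Among the ligands, Crh, which encodes CRF itself, was nearly the same in the groups. Its intensity was 170 at the lowest, 176 at the median and 206 at the highest in lactating mice, and 155, 173 and 237 in virgin mice. The highest value was that of virgin mouse 2, and the other 5 virgin mice lay at or below 184. The means were 180 ± 13.7 in lactating mice and 180 ± 29.9 in virgin mice (SD, n = 6 each). The log2 difference was 0.010 (SE 0.086, 95% interval -0.18 to 0.20), with an adjusted p of 0.972 in limma. The values carry no detection call, and 12.3% of the 1205 clusters of olfactory and vomeronasal receptor genes, which are expressed mainly in sensory neurons of the nose, had a mean intensity at or above that of Crh. Crh was thus not shown to be above background, and the interval does not bound a change of its transcript.

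Ucn, which encodes urocortin 1, a ligand of both receptors, was lower on average in lactating mice, within the error. It had intensities of 296 at the lowest, 325 at the median and 336 at the highest in lactating mice, and 310, 348 and 407 in virgin mice. All 6 lactating mice lay below the virgin median, and 4 of the 6 virgin mice lay above all lactating mice, while virgin mice 3 and 4 lay among them. The means were 319 ± 16.1 in lactating mice and 347 ± 34.5 in virgin mice (SD, n = 6 each). The log2 difference was -0.11 (SE 0.060, 95% interval -0.24 to 0.02), with an unadjusted p of 0.0848 and an adjusted p of 0.626 in limma, and the exact two-sided permutation test over mice gave p = 0.0866. With the fit made without virgin mouse 4 or virgin mouse 3, the unadjusted p was 0.0323 or 0.0471, and the adjusted p was 0.458 or 0.435 (limma). Without virgin mouse 2, the highest of its group, the difference was -0.068 with an unadjusted p of 0.191, and over all 12 fits without 1 mouse it ran between -0.14 and -0.068.

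Ucn2 and Ucn3 encode the ligands with a preference for Crhr2. Ucn2 ranged between 206 and 301 in lactating mice, with a median of 253, and between 219 and 299 in virgin mice, with a median of 258. The groups covered nearly the same range, and the log2 difference was -0.026 (SE 0.089, 95% interval -0.22 to 0.17, adjusted p = 0.930 in limma). Ucn3 ranged between 144 and 176 in lactating mice, with a median of 155, and between 145 and 192 in virgin mice, with a median of 176. All 6 lactating mice were below the virgin median of Ucn3, and 3 virgin mice were above all of them. Its log2 difference was -0.11 (SE 0.067, 95% interval -0.25 to 0.04), with an unadjusted p of 0.131 and an adjusted p of 0.654 in limma. With the fit made without virgin mouse 4, the lowest of its group, the difference was -0.15 with an unadjusted p of 0.0256 and an adjusted p of 0.458 (limma). Without virgin mouse 6, the highest of its group, it was -0.078 with an unadjusted p of 0.268, and the 12 fits without 1 mouse ran between -0.15 and -0.078. Of the olfactory and vomeronasal receptor clusters, 14.9% had a mean at or above that of Ucn3, 4.23% at or above that of Ucn2 and 1.58% at or above that of Ucn, so that Ucn3, like Crh, was not shown to be above background. Ucn2, with a mean of 257 over all mice, lay close to 245, the 95th percentile of the means of these clusters. Ucn and Ucn2 also varied with these clusters across mice, as given below, so these shares do not establish that they were detected.

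Of the receptors, Crhr1 varied least among mice. Its intensity was 658 at the lowest, 670 at the median and 701 at the highest in lactating mice, and 590, 647 and 680 in virgin mice. All 6 lactating mice lay above the virgin median, 4 of the 6 virgin mice lay below all lactating mice, and virgin mice 3 and 6 lay within the lactating range. The means were 673 ± 15.7 in lactating mice and 642 ± 32.8 in virgin mice (SD, n = 6 each), 4.89% higher in lactating mice. The log2 difference was 0.069 (SE 0.039, 95% interval -0.02 to 0.15), with an unadjusted p of 0.102 and an adjusted p of 0.640 in limma, and the exact permutation p was 0.0671. This was the narrowest interval of the 7 genes and ran, as percent of intensity plus 16, from a fall of 1.08% to a rise of 11.2% in lactating mice. The highest value, 701, was that of lactating mouse 4. The log2 difference was 0.057 without that mouse, and over all 12 fits without 1 mouse it ran between 0.045 and 0.085.

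Crhr2, the receptor that the lateral septum is known for, spread more widely within the groups and did not separate them. It ranged between 488 and 668 in lactating mice, with a median of 562, and between 460 and 631 in virgin mice, with a median of 582. Virgin mice fell into 4 between 557 and 631 and 2, mice 4 and 6, at 464 and 460, and among lactating mice the lowest was mouse 4. The log2 difference was 0.034 (SE 0.093, 95% interval -0.17 to 0.23), with an adjusted p of 0.910 in limma. Across the 12 mice Crhr2 had an r of 0.11 with the lateral septum markers (permutation p = 0.744, rho = 0.17), which does not show that they were unrelated.

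Crhbp had the largest point estimate of the 7 genes, and 1 mouse carried much of it. Its intensity was 527 at the lowest, 565 at the median and 811 at the highest in lactating mice, and 482, 514 and 607 in virgin mice. All 6 lactating mice lay above the virgin median and 4 virgin mice lay below all lactating mice. Lactating mouse 4 was at 811, whereas the other 5 lactating mice lay between 527 and 583. The means were 601 ± 105 in lactating mice and 533 ± 51.3 in virgin mice (SD, n = 6 each). The log2 difference was 0.16 (SE 0.096, 95% interval -0.05 to 0.37), with an unadjusted p of 0.122, an adjusted p of 0.648 in limma and an exact permutation p of 0.149. Without lactating mouse 4 the difference was 0.072.

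**Figure D2:**
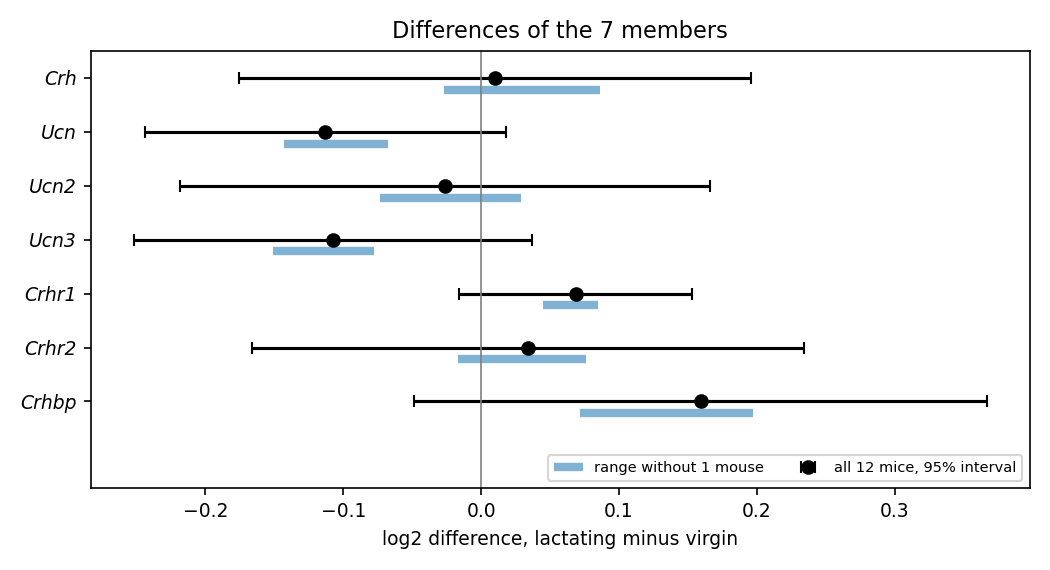
Log2 difference (lactating minus virgin) of the 7 genes with all 12 mice, as points with 95% intervals from limma, and below each the range of the differences when 1 mouse at a time was left out, as a blue bar. All 7 intervals hold 0, and the blue bar crosses 0 for Crh, Ucn2 and Crhr2.

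Lactating mouse 4 also stood apart in markers of neighbouring tissue. Of the 7 markers of excitatory neurons of the cortex and hippocampus, 6 were measured, 0 of 6 were called in either direction, and none was at 0. Their summed intensity was 7818 in lactating mouse 4 and 2319 to 3924 in the other lactating mice, against 2475 to 4050 in virgin mice. Slc17a7, the vesicular glutamate transporter of cortical and hippocampal neurons, ranged from 113 to 3722 over the 12 mice. Tbr1 ranged from 172 to 1170 and Neurod6 from 39.4 to 716. The rest of the list varied far less, with Neurod2 at 1329 to 1703, Emx1 at 256 to 372 and Prox1 at 237 to 316. The striatal list of 5 measured markers was lowest in lactating mouse 4, with a summed intensity of 9871. The other lactating mice were at 11985 to 16440 and virgin mice at 13605 to 17136.

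Crhbp went with the cortical and hippocampal markers across the 12 mice (r = 0.81, permutation p = 0.0051, and rho = 0.60, permutation p = 0.0427). Adjusted over the 105 pairs of a gene and a marker list, of which 15 had an unadjusted p under 0.05 and 0 an adjusted p under 0.05, these were 0.150 and 0.482. Without lactating mice 1 and 4, the 2 farthest out on the marker list, r was 0.53, and without lactating mouse 4 alone it was 0.50. Within the groups r was 0.90 in lactating mice and 0.41 in virgin mice. Crhbp also had an r of 0.71 with endothelial markers (adjusted p = 0.177 by permutation), of 0.75 with smooth muscle and pericyte markers, which was 0.13 without lactating mouse 4, and of 0.73 with Alas2, the heme synthesis enzyme of red blood cell precursors and the 1 measured marker of the blood list. Alas2 itself had a mean of 341 over lactating mice and of 268 over virgin mice (unadjusted p = 0.0180 in limma). The part of these tissues in the level of Crhbp was not tested.

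Crhbp and Crhr2 ran in opposite directions among mice. The 3 mice with the lowest Crhr2, lactating mouse 4 and virgin mice 4 and 6, were the 3 with the highest Crhbp. Over the 12 mice r was -0.60 (permutation p = 0.0322, adjusted p = 0.164) and rho was -0.60 (permutation p = 0.044, adjusted p = 0.231), with adjustment over the 21 pairs of the 7 genes. With group means removed r was -0.72, and it was -0.72 within lactating mice and -0.88 within virgin mice. It was -0.69 without virgin mice 4 and 6, the 2 farthest out in Crhr2, and -0.60 without lactating mouse 4. Of the 21 pairs, 5 had an unadjusted p under 0.05 for r and 0 an adjusted one, so the relation did not pass the correction for the number of pairs. The other 4 of the 5 were Crhr1 with Ucn (r = -0.76, rho = -0.48), Ucn with Ucn3 (r = 0.67, rho = 0.74), Ucn with Ucn2 (r = 0.63, rho = 0.60) and Crh with Ucn2 (r = 0.59, rho = 0.57). Without the 2 mice farthest out in the first gene of the pair, r was -0.25 for Crhr1 with Ucn and 0.12 for Crh with Ucn2, so that these rested on those mice.

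The 3 urocortin transcripts varied across the 12 mice together with genes that have little known use in the brain. The share of all clusters that did so was not computed. The 1205 clusters of olfactory and vomeronasal receptor genes stood for such genes, and the mean log2 deviation of all 1205 was taken on each array. It ran between -0.14 and 0.042 in lactating mice and between -0.058 and 0.13 in virgin mice, with overlapping groups (the lactating mean was -0.034 and the virgin mean 0.034, with an exact permutation p of 0.143). Of these clusters 0.332% were called higher and 10.6% lower in lactating mice. Ucn had an r of 0.90 with this mean over the 12 mice (rho = 0.93, adjusted permutation p for r = 0.00021 over the 7 genes), Ucn2 an r of 0.81 (rho = 0.82, adjusted p = 0.00644) and Ucn3 an r of 0.77 (rho = 0.69, adjusted p = 0.00894). Without lactating mice 3 and 6, the 2 farthest from the median of the mice, r was 0.89, 0.77 and 0.61 for Ucn, Ucn2 and Ucn3. Without virgin mouse 2, which had the highest mean of these clusters and the highest Ucn, r was 0.91, 0.76 and 0.80. Within lactating mice r was 0.90, 0.86 and 0.75, and within virgin mice it was 0.94, 0.87 and 0.68.

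Crhr1 ran the other way (r = -0.62, rho = -0.56, adjusted permutation p for r = 0.0531), and Crh (r = 0.44), Crhr2 (r = -0.26) and Crhbp (r = -0.22) had adjusted p of 0.220 or more. Without virgin mouse 2, r was -0.40 for Crhr1 and 0.052 for Crh. With this mean as a covariate in the limma fit, an alternative chosen after the values were seen, the log2 difference of Ucn was -0.027 (SE 0.040, unadjusted p = 0.512) and that of Ucn3 was -0.029 (SE 0.057, unadjusted p = 0.617), and that of Ucn2 was 0.11 (SE 0.057, unadjusted p = 0.0888). The difference of Crhbp was 0.15 and that of Crhr1 was 0.043 in this fit. The correlations among the urocortins were -0.39 for Ucn with Ucn2 and -0.092 for Ucn with Ucn3 once the mean was regressed out, and that of Crhr2 with Crhbp was -0.70. What sets this shared variation was not tested. Inhibitory neuron markers (Gad1, Gad2 and Slc32a1, all measured and none at 0) also moved with Ucn, in the opposite direction (r = -0.81, rho = -0.83, adjusted permutation p = 0.107 and 0.138). They had an r of -0.65 with Ucn3 and of -0.61 with Ucn2 (rho = -0.60 and -0.47, adjusted permutation p = 0.279 for both r). The summed intensity of these markers was 15487 to 17331 in lactating mice and 15438 to 17335 in virgin mice. Hypothalamic markers, of which 6 of 7 were measured, 0 were called and none was at 0, had an r of 0.78 with Ucn (rho = 0.66, adjusted permutation p = 0.150 and 0.449), of 0.64 with Crh and of 0.61 with Ucn2 (adjusted permutation p = 0.279 for both r). Without lactating mouse 6 and virgin mouse 2, the 2 farthest out on this list, these were 0.36, 0.45 and 0.58. The list summed to 1935 to 2182 in lactating mice and 1989 to 2410 in virgin mice, and the part of this tissue was not tested. Group means of Sim1, Pmch, Hcrt and Trh ran from 166 to 244. They lay under 244.85, the 95th percentile of the means of the olfactory and vomeronasal receptor clusters. These genes were thus not shown to be above background, whereas Otp and Nkx2-1 lay above that percentile.

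**Figure D3:**
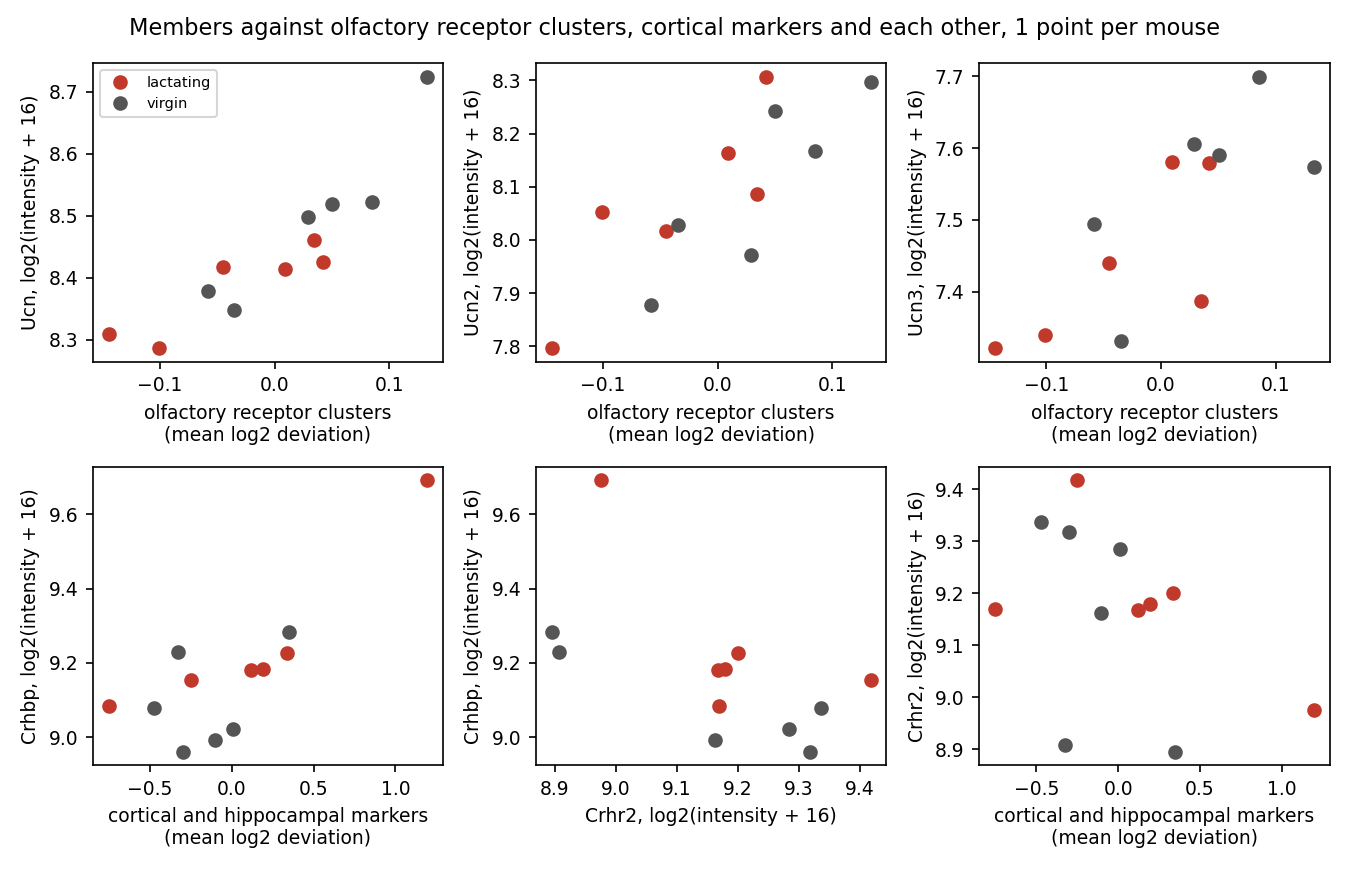
Each point is a mouse, lactating in red and virgin in grey. The upper panels plot Ucn, Ucn2 and Ucn3 (log2 of intensity plus 16) against the mean log2 deviation of 1205 olfactory and vomeronasal receptor clusters (r = 0.90, 0.81 and 0.77), and the lower panels plot Crhbp against cortical and hippocampal markers, Crhbp against Crhr2 and Crhr2 against the same markers, with lactating mouse 4 alone at the right end of the marker axis.

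As a description of likeness, the 3 transcripts closest to each of Crhr1, Crhr2, Crhbp and Ucn across the 12 mice were taken after group means were removed, out of 12645 clusters with 1 symbol and a mean above the median of clusters. They are the highest of many correlations and carry no test. Crhr2 was closest to Arntl2, a partner of the circadian factor Clock (r = 0.90), Gpr139, an orphan G protein-coupled receptor of the brain (r = 0.90), and Myt1, a zinc finger factor of neural cells (r = 0.90). Crhbp was closest to Ak5, an adenylate kinase of the brain (r = 0.94), Slc3a2, the heavy chain of amino acid transporters (r = 0.93), and Ccl19, a chemokine (r = 0.92). Without lactating mouse 4 these 3 were 0.87, 0.82 and 0.77. Ucn was closest to Espn, which encodes the actin-bundling protein espin (r = 0.96), Pld2, a phospholipase D (r = 0.96), and Mdfi, an inhibitor of MyoD family factors (r = 0.95). Crhr1 was closest to Znhit2 (r = 0.92), Pa2g4, which binds the ErbB3 receptor (r = 0.91), and Mien1 (r = 0.91).

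Promoter windows of 5 of the 7 genes, from 250 bases before to 50 bases after the annotated start, were read from RefSeq (build GRCm38.p6). Those of Ucn, Crhr2 and Crhbp are printed, because Ucn had the smallest p of the 7 genes in the limma fit and Crhr2 and Crhbp ran against each other. By exact permutation the p of Crhr1 was smaller than that of Ucn. Capitals mark the cyclic AMP response element TGACGTCA, through which CREB acts downstream of both receptors, its shorter form TGACG, and the TATA box TATAAA. All were searched on both strands. The shorter form lies within the longer one.
Ucn, chr5:31138846-31139145, minus strand: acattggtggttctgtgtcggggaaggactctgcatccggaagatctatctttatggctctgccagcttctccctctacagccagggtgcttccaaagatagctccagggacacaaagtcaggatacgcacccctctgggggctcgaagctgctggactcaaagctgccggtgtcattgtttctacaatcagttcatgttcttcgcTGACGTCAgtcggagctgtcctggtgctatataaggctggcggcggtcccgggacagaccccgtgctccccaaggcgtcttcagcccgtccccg
Crhr2, chr6:55132967-55133266, minus strand: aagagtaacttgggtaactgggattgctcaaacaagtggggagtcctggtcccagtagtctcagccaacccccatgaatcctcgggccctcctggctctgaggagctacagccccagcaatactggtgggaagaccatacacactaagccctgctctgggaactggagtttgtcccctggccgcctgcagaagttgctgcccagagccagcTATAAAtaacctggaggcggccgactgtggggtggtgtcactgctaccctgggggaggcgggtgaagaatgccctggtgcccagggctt
Crhbp, chr13:95444782-95445081, minus strand: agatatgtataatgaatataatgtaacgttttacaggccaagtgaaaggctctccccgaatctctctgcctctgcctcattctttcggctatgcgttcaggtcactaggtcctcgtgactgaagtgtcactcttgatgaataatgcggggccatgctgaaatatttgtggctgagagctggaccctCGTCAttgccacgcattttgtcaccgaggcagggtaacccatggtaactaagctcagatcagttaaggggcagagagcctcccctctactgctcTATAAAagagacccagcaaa

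The Ucn window held the full element with its first base 44 bases before the start, a sequence found in 1.79% of 32851 windows of this length. The Crhbp window held only the shorter form, as its reverse complement, 64 bases before the start. Of all windows 20.8% held the shorter form in one or both orientations, and these include the windows with the full element. TATAAA began 39 bases before the start in Crhr2 and 30 bases after the start in Crhbp, and it was found in 13.6% of windows. The windows of Crhr1 and Ucn3 held none of these letters. A match is a description of the sequence only. The TATAAA of Crhbp lies after the annotated start and is not read here as the TATA box of that start. Other forms of the TATA box were not searched for, so a window without a mark may still hold one.

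Of the other genes of the pathway, listed by role with earlier results of these data known, 85 of 92 were measured by a cluster of their own. At an unadjusted p under 0.05 (limma), 7 of the 85 (8.24%) were higher and 4 (4.71%) lower in lactating mice, where 3.86% of all 19938 genes were called higher and 4.83% lower. The median log2 difference of the 85 was 0.024, beside -0.0043 over all genes, and the smallest adjusted p among them was 0.619. None of the 85 thus passed the adjustment over all clusters. The share called lower was near that of all genes, and the share called higher was above it without a test of the difference.

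The list of receptor transduction, the G proteins, adenylyl cyclases, kinases and cyclic AMP effectors, had 32 of 38 members measured, with 2 called higher, 1 lower and a median of 0.040. Rapgef3, the cyclic AMP-gated exchange factor Epac1, ranged between 584 and 692 in lactating mice, with a median of 650, and between 515 and 652 in virgin mice, with a median of 558. Its log2 difference was 0.18 (SE 0.058, unadjusted p = 0.00789), and 5 of the 6 virgin mice lay below all lactating mice. Adcy7, an adenylyl cyclase, ranged between 282 and 323 in lactating mice, with a median of 303, and between 309 and 359 in virgin mice, with a median of 339. Its log2 difference was -0.15 (SE 0.044, unadjusted p = 0.00427), the smallest p in the lists, and 5 virgin mice lay above all lactating mice. Crem, the cyclic AMP-responsive factor related to CREB, had a mean of 320 ± 18.6 in the lactating and 295 ± 13.4 in the virgin group (SD, n = 6 each), a difference of 0.11 (unadjusted p = 0.0276 in limma).

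The list of processing and storage of peptide precursors had 14 of 15 members measured, 1 called higher and 0 lower, with a median of 0.055. The 1 called was Cadps2, which primes dense-core vesicles for release. It had a mean of 498 ± 60.4 in the lactating and 419 ± 39.1 in the virgin group (SD, n = 6 each), a log2 difference of 0.24 (SE 0.079, unadjusted p = 0.00958 in limma). All 6 lactating mice lay above the virgin median.

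Of the other genes of the hypothalamic-pituitary-adrenal axis, all 16 were measured, 3 were called higher and 1 lower, and the median was 0.0026. At 3 and 1 of 16, these counts stand beside the 3.86% and 4.83% of all genes given above. The receptors of glucocorticoids and mineralocorticoids, Nr3c1 and Nr3c2, had differences of 0.027 and -0.0022, and the enzymes that convert corticosterone, Hsd11b1 and Hsd11b2, of -0.14 and -0.016, none of them called. Sgk1, a kinase induced by glucocorticoids, ranged between 981 and 1626 in lactating mice, with a median of 1193, and between 764 and 1140 in virgin mice, with a median of 982. The groups overlapped in 1 lactating mouse, the other 5 lying above all virgin mice, and the log2 difference was 0.32 (SE 0.12, unadjusted p = 0.0161 in limma). Fkbp4 and Fkbp5, co-chaperones of the receptor with opposite known effects on it, differed by 0.15 (SE 0.055, unadjusted p = 0.0200) and 0.14 (SE 0.057, unadjusted p = 0.0315 in limma). Avpr1b, the vasopressin receptor through which corticotropin release is raised in the pituitary, had a mean of 139 ± 8.41 in the lactating and 156 ± 17.0 in the virgin group (SD, n = 6 each), a difference of -0.15 (unadjusted p = 0.034 in limma). Its call was lost on the linear scale and under all 3 other scalings of the arrays.

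The other receptors of the secretin family, to which Crhr1 and Crhr2 belong, were all 13 measured, with 1 called higher, 1 lower and a median of -0.052. Pth2r, the receptor of the peptide TIP39, had a mean of 187 ± 18.7 in the lactating and 155 ± 21.5 in the virgin group (SD, n = 6 each), a log2 difference of 0.25 (SE 0.085, unadjusted p = 0.0105 in limma). Sctr, the secretin receptor, had a mean of 205 ± 21.8 in the lactating and 237 ± 17.8 in the virgin group (SD, n = 6 each), a difference of -0.20 (SE 0.068, unadjusted p = 0.0122 in limma). Of the 13 factors known to act on the Crh promoter, all measured, with a median of 0.015, Crem was higher, as above, and Rest, a repressor of neuronal genes, was lower. Rest differed by -0.11 (SE 0.045, unadjusted p = 0.0267 in limma), and lost its call under all 3 other scalings of the arrays.

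**Figure D4:**
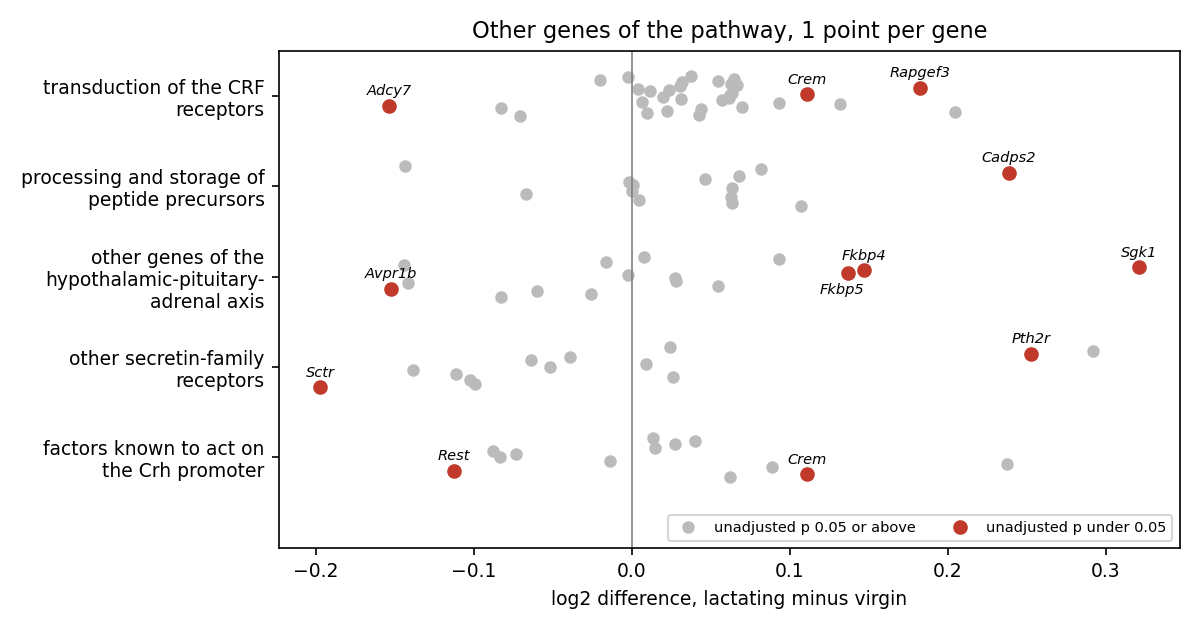
Log2 difference (lactating minus virgin) of the measured genes of the 5 pathway lists, 1 point per gene, with genes at an unadjusted p under 0.05 in red and named. Most points lie within 0.1 of 0 on either side, and Crem appears in both lists that hold it.

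Of these 11 genes, 7 were called in every fit without 1 mouse (Adcy7, Rapgef3, Cadps2, Fkbp4, Sgk1, Sctr and Pth2r), and Crem, Avpr1b, Fkbp5 and Rest lost the call without any of 4 or 5 single mice. With the olfactory and vomeronasal receptor mean as a covariate, 5 of the 11 were called (Adcy7, Rapgef3, Cadps2, Sgk1 and Rest). All 4 genes called lower had a mean intensity under the median of clusters, as did 2 of the 7 called higher. Avpr1b, Pth2r and Sctr had means of 147, 171 and 221 over all mice. These lie under 245, the 95th percentile of the means of the olfactory and vomeronasal receptor clusters, so they were not shown to be above background.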

How the data were processed

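RNA of 12 septum samples (6 lactating, 6 virgin) was hybridised to Affymetrix Mouse Gene 1.0 ST arrays. The deposited values are intensities, which the authors summarised per transcript cluster and normalized with PLIER, with background corrected by GC bins, in Affymetrix Power Tools 1.12.0. They carry no detection call, and the genome build of the array annotation is not given in the sources used here. Genes were named from the platform table, in which 21789 clusters have 1 symbol, 1621 several and 12146 none. For pathway genes with several clusters the one with the highest mean was used.

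The log2 of intensity plus 16 was compared over all 35556 clusters with limma 3.58.1 in R 4.3.3 (lmFit, eBayes, two-sided, Benjamini-Hochberg), and a call is an unadjusted p under 0.05. The 16 compresses log2 differences, most of all in the 496 clusters with a lower mean. It also acts on dim members, and Ucn3 differed by -0.108 with 16 and by -0.117 with an added value of 1. Single genes were also tested by exact permutation over 924 assignments (smallest p 0.00216), and correlations by 100000 permutations. The scripts were tested on simulated data. The number of arrays limits the precision. The labels call the samples biological replicates.

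The members and lists were chosen with earlier results of these data known. The text names the 7 genes, list genes with an unadjusted p under 0.05 and the 3 most alike transcripts of members above the median of clusters, and marker genes where their list moved with a member. As alternatives, intensities on the linear scale were tried, and so were an added value of 1, filters by intensity and by symbol, quantile, median and cyclic loess scaling, a variance trend, array weights, a replicate block, the mean over clusters of a gene and each mouse left out. The olfactory and vomeronasal mean, and leaving lactating mouse 4 or virgin mouse 2 out of correlations, were added after the values were seen. List genes without a cluster of their own were not analysed here.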

Additional observations from a re-analysis of the deposited data

Results flagged for a closer look

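In 2 of the 14 sets of 6 values (7 genes in 2 groups), 1 mouse lay far from the others by Dixon's criterion, which chance meets in about 1 of 20 groups. Crhbp was at 811 in lactating mouse 4, and the gap to the next mouse took up 0.802 of the range of its group. Crh was at 237 in virgin mouse 2, where the gap took up 0.641 of the range. Without these mice the log2 difference (lactating minus virgin) was 0.072 for Crhbp and 0.086 for Crh, and neither gene was called with or without them.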

How the results depend on the processing

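The precision is that of 6 mice a group, and the intensities carry no detection call, so that a low transcript and background cannot be told apart. Of 74 alternative fits of single members that left out no mouse, 69 kept the direction and the side of the threshold, and of 84 fits without 1 mouse 71 did. The exceptions were Crhr2 with array weights (-0.020), Ucn2 with quantile (0.010) and cyclic loess scaling (0.011), and, with the olfactory and vomeronasal receptor mean as covariate, Crhr2 (-0.0039) and Ucn2 (0.11), and among the fits without 1 mouse 10 reversed directions and 3 calls newly made. Those fits ranged from -0.027 to 0.086 for Crh, 0.045 to 0.085 for Crhr1, -0.017 to 0.076 for Crhr2, 0.072 to 0.20 for Crhbp, -0.14 to -0.068 for Ucn, -0.073 to 0.029 for Ucn2 and -0.15 to -0.078 for Ucn3. They called 0 to 2 members lower and 2 to 8 pathway genes lower, with 8 when lactating mouse 5 was left out, 7 for virgin mouse 3 and 2 for virgin mouse 6. The smallest adjusted p of a member in any fit was 0.435. Pathway genes called lower numbered 0 among clusters above the median intensity and 2 each with quantile, median and cyclic loess scaling, and with the covariate 3 were called higher and 2 lower. The cause was not tested, except that the 4 genes called lower all lie under the median intensity. With that mean regressed out, r was -0.39 for Ucn with Ucn2 and -0.092 for Ucn with Ucn3. The calls over all clusters were 41.0% higher in the fit as reported, 55.2% on the linear scale, 52.2% with quantile, 54.3% with cyclic loess and 67.1% with median scaling. Mice with the same number deviated together with r above 0.1 for 1 of 6 numbers, so the numbers were not taken to pair the mice. This r was 0.40 for number 3 and ran from -0.056 to 0.062 for the rest. The methods state that RNA was prepared in pairs of 1 lactating and 1 virgin mouse. The members of each pair are not stated, so a fit by those pairs was not run. The replicate block, with 8 pathway genes higher and 5 lower, called 0 of the 7 members. With the block the SE was 0.046 for Ucn2, 0.059 for Crhr2 and 0.071 for Crhbp, against 0.089, 0.093 and 0.096 without it. For Crhr1 it was 0.040 against 0.039. The smallest unadjusted p of a member with the block was 0.0553, for Crhbp (adjusted p = 0.555 in limma). Whether the numbers reflect the pairs of the RNA preparation was not tested.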
